A study of Mus musculus with 4 samples.

Results

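The miR-15/16 family is a set of related microRNA (miRNA), short RNAs of about the same length that pair with target transcripts and lower their output. The arms described here were chosen by name, as the listed arms of miR-15a, miR-15b, miR-16, miR-195a, miR-322 and miR-497a, and they are 10 of the 1966 mature arms listed for each library, 6 of them 5p arms and 4 of them 3p arms. Small RNA was sequenced from primary cortical neurons of mouse embryos at E16.5, kept for 5 days in vitro in medium without serum and given no treatment. The WT group carries no transgene. The TgAD group is the APP/PS1 mutant, a model of Alzheimer's disease on a B6C3 background that carries a chimeric mouse/human APP bearing the Swedish mutations together with an exon-deleted human presenilin 1. The mouse prion promoter drives both transgenes, so they are active chiefly in neurons of the brain and spinal cord. Each genotype has 2 libraries. The study's methods state that neurons of each embryo were cultured apart and genotyped afterwards.

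A miRNA hairpin gives 2 arms. One of them, usually called the guide, is kept by an Argonaute protein and finds targets through its seed, bases 2 to 8, while the other, the passenger, is mostly degraded. Members of the miR-15/16 family are known to repress regulators of the G1-S transition, such as cyclin D1, cyclin E1 and CDK6, and the survival factor BCL2. They are commonly linked to exit from the cell cycle and to tumor suppression, and miR-15a and miR-16-1 are lost with the DLEU2 locus in chronic lymphocytic leukemia.

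The sequences of the 5p arms are shown to let the shared seed and the diverging 3′ parts be compared, from RefSeq on GRCm38.p6, 5′ to 3′, with bases 2 to 8 in capitals.
mmu-miR-15a-5p: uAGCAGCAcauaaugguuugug
mmu-miR-15b-5p: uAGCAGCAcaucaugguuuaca
mmu-miR-16-5p: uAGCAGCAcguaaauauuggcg
mmu-miR-195a-5p: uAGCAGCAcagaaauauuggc
mmu-miR-322-5p: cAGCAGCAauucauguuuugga
mmu-miR-497a-5p: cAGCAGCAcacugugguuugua
All 6 hold the seed AGCAGCA. Counted from the 5′ end, miR-15a-5p and miR-15b-5p differ at 4 of 22 bases (A12C, G20A, U21C and G22A), and miR-16-5p and miR-195a-5p at 2 of the 21 bases they can be compared over (G10A and U11G).

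The 3p arms come from the other side of the same hairpins and are shown, with the same bases in capitals, because none of them holds that seed.
mmu-miR-15b-3p: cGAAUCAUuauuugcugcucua
mmu-miR-16-1-3p: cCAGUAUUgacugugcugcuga
mmu-miR-16-2-3p: aCCAAUAUuauugugcugcuuu
mmu-miR-195a-3p: cCAAUAUUggcugugcugcucc
Of the 1675 listed miRNA with a sequence in the reference table, 10 hold the seed of miR-16-5p. Among them, miR-195b, miR-6342, miR-6353 and miR-6419 had 0 reads in all 4 libraries.

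The hairpins lie in 4 clusters on GRCm38. Mir15a (chr14:61632027-61632110) and Mir16-1 (chr14:61631880-61631972) lie on the minus strand, 54 nucleotides apart, in an intron of the long noncoding RNA Dleu2 in each of the 8 annotated transcripts that span them. Mir15b (chr3:69009772-69009835) and Mir16-2 (chr3:69009902-69009996) lie on the plus strand, 66 nucleotides apart, in an intron of Smc4 in all 5 spanning transcripts. Smc4 is a protein-coding gene for a subunit of condensin, which compacts chromosomes for mitosis. Mir497 (chr11:70234717-70234800) and Mir195a (chr11:70235042-70235135) lie on the plus strand of chromosome 11, and Mir322 (chrX:53054255-53054349) lies on the minus strand of chromosome X, 200 nucleotides from Mir503 (chrX:53053984-53054054). The sequence of miR-16-5p occurs in 2 annotated hairpins, Mir16-1 and Mir16-2, whereas the other 9 arms occur in 1 each. How reads with more than 1 exact placement were counted is not given in the sources used here, so the level of miR-16-5p cannot be set beside those of single-locus arms.

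The counted reads ranged from 2070204 to 4811010 per library, and 496 miRNA passed the filter on low counts and were tested, all 10 family arms among them. Levels are given in CPM after scaling by TMM, a method that sets a common size for the libraries from the bulk of the miRNA, and 3 reads, the floor used here, correspond to 0.746 to 1.28 CPM. miR-99a-5p alone took 15.8% and 16.7% of the reads in WT and 27.0% and 31.8% in TgAD libraries. With total counts in place of TMM the median log2 fold change of all tested miRNA moved from 0.032 to -0.23. Of 6 miRNA listed as neuronal, miR-9-5p and miR-9-3p, each encoded in 3 hairpins, had 0 reads. miR-124-3p was seen 1 and 2 times in WT against 7 and 4 times in TgAD libraries. miR-128-3p, encoded in 2 hairpins as are miR-138-5p and miR-218-5p, had 43009 to 240174 reads. The summed level of this list was 21121 to 35034 CPM in WT and 62005 to 86098 CPM in TgAD libraries, most of it miR-128-3p. Of the other tested neuronal miRNA, miR-138-5p had a log2 fold change of -0.63 and miR-218-5p of 0.35, and neither passed in edgeR's test (adjusted p = 0.226 and 0.521). The oligodendrocyte markers miR-219a-2-3p and miR-338-3p and the endothelial markers miR-126a-3p and miR-126a-5p had 0 reads. Whether the counting used strand, and how it treated reads with several placements, is not given in the sources used here. The values of 0 and the few reads of miR-124-3p were therefore not read as absence of a cell type. The 5 markers of blood and myeloid cells summed to 1320 to 1341 CPM in WT and 660 to 971 CPM in TgAD libraries, nearly all of it miR-451a of red cells, and the 4 endothelial and mural markers to 718 to 901 and 756 to 827 CPM. The 3 markers of microglia and reactive glia, led by miR-21a-5p, summed to 18067 to 23314 CPM in WT and 14787 to 15986 CPM in TgAD libraries. The part of these differences in the results was not tested, and in bulk RNA fewer cells of a type and less RNA per cell cannot be told apart.

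The labels of the libraries are open to doubt. A second deposited table holds normalized values from which whole reads were recovered, and its column named WT_1 equals the counts of the first TgAD library for 100% of the 674 miRNA it lists. Its column WT_2 equals the first WT library, its column TR_1 equals the second TgAD library, and its column TR_2 equals none of the count tables. The second WT library equals none of the columns, with the same reads for at most 5.49% of the miRNA listed. Every WT mean below rests in part on that library. The count tables are used below as labelled, and the log2 fold changes and arm ratios of the family are also given without the first TgAD library.

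Together, the 5p arms of the family were less abundant in TgAD than in WT neurons. They took 0.229% (95% Wilson interval 0.222 to 0.235) and 0.219% (0.214 to 0.225) of the counted reads of WT neurons, against 0.0984% (0.0948 to 0.102) and 0.0689% (0.0666 to 0.0713) of those of TgAD neurons. Neither TgAD share reached either WT share, and the mean TgAD share was 0.374 times the mean WT share. The intervals cover counting error only, since the reads carry no molecular identifiers. With miR-99a-5p taken out of the total the shares were 0.271% and 0.263% in WT and 0.135% and 0.101% in TgAD libraries. Without miR-16-5p they were 0.182% and 0.177% in WT and 0.0829% and 0.0624% in TgAD libraries. A comparison of a single value between 2 and 2 libraries cannot go below p = 0.33 in a two-sided exact permutation test, so the tests of single arms rest on the spread shared over all miRNA.

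The family also changed its make-up. miR-15a-5p held 33.3% (31.9 to 34.6) and 27.2% (26.1 to 28.3) of the family's 5p reads in WT and 15.99% (14.7 to 17.4) and 10.9% (9.87 to 11.99) in TgAD libraries. miR-15b-5p held 8.67% (7.90 to 9.50) and 11.2% (10.4 to 12.03) in WT and 27.1% (25.4 to 28.8) and 35.5% (33.9 to 37.2) in TgAD libraries. These shares do not depend on how libraries are scaled, and for neither arm did the libraries of the genotypes overlap. They are parts of a whole, so a share can rise because other arms fall. The whole includes miR-16-5p, whose reads fit 2 hairpins. The share of miR-322-5p was 5.77% and 6.04% in WT and 9.17% and 10.0% in TgAD libraries, although its level in CPM was lower in TgAD libraries. That of miR-16-5p was 20.5% and 19.4% in WT and 15.8% and 9.53% in TgAD libraries. The share of miR-195a-5p lay between 24.1% and 27.9% in WT and between 23.3% and 25.3% in TgAD libraries, with overlap. That of miR-497a-5p lay between 7.74% and 8.77% in the 4 libraries.

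**Figure D1:**
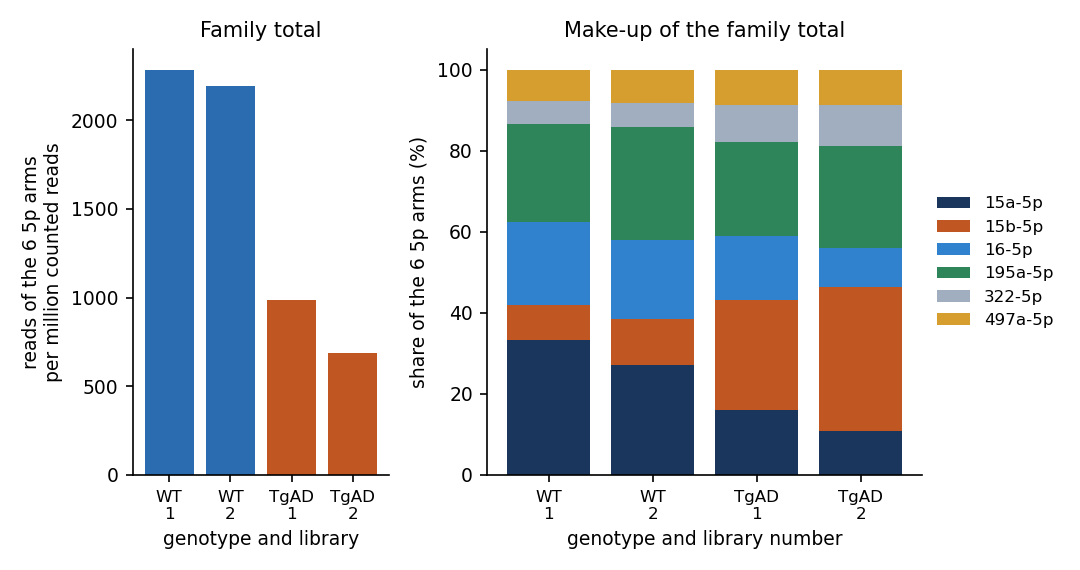
Left, reads of the 6 5p arms of the family in each library, in CPM by total counts (bars). Right, the share of each 5p arm in those reads (stacked bars, in percent). The total falls from 2285 and 2191 in WT to 984 and 689 in TgAD, while the share of miR-15b-5p grows from 8.67% and 11.2% to 27.1% and 35.5%.

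In the quasi-likelihood test of edgeR, adjusted by Benjamini-Hochberg, 6 of the 10 arms were past a log2 fold change of 0.6 in size and an adjusted p of 0.1, 1 of them higher and 5 of them lower with the transgenes. The median log2 fold change of the 10 arms was -0.76, against 0.032 over all tested miRNA. Over all tested miRNA, 33.1% passed these cutoffs, 17.3% lower and 15.7% higher. The libraries of the 2 genotypes did not overlap for 9 of the 10 arms, but this held for 63.1% of all tested miRNA. Of the 5p arms, 4 of 6 were lower and none was higher, with a median of -1.16. Without the first TgAD library the log2 fold changes of the 6 arms kept their direction. With the columns of the normalized table taken by name none of the 10 arms passed, and 0 of all miRNA did. That setting counts the first TgAD library as WT, lacks the second WT library and adds the unmatched column TR_2. The 6 arms kept their direction there, at -2.39 (miR-15a-5p), -1.94 (miR-16-5p), -1.05 (miR-16-2-3p), -0.76 (miR-195a-5p), -0.98 (miR-497a-5p) and 1.25 (miR-195a-3p). Both settings reuse libraries of the fit that picked these 6 arms, so a kept direction is not a separate check.

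miR-15a-5p, the guide of the Dleu2 cluster, was counted 1574 and 1641 times in WT against 434 and 361 times in TgAD libraries, or 670 and 564 against 158 and 89.8 CPM. Both TgAD libraries lay far under both WT libraries. The change of -2.32 on the log2 scale (standard error, SE, 0.311) was the largest decrease of the 10 arms, with an adjusted p of 0.00934 in edgeR's test. Without the first TgAD library the log2 fold change was -2.88, and with total counts as library size it was -2.55. miR-16-1-3p, the opposite arm of the neighboring hairpin, was counted 577 and 824 times in WT against 414 and 972 times in TgAD libraries, or 246 and 283 against 151 and 242 CPM. The TgAD libraries lay under the WT libraries by CPM, the second of them only just. Its log2 fold change of -0.43 (SE 0.271, adjusted p = 0.310 in edgeR's test) did not pass. Scaled by total counts it was -0.71 (adjusted p = 0.0729 in edgeR's test), which passes, and with the second TgAD library left out it was -0.78. Leaving out the first gave -0.23. Read against miR-16-1-3p in the same library, miR-15a-5p had 2.73 and 1.99 reads per read in WT and 1.05 and 0.371 in TgAD libraries.

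miR-16-5p, the guide of both Dleu2 and Smc4 clusters, was counted 970 and 1172 times in WT against 428 and 316 times in TgAD libraries. By level these were 413 and 403 CPM in WT and 156 and 78.6 CPM in TgAD libraries, so that the WT libraries were close together and the TgAD libraries differed from each other but lay under both. The log2 fold change was -1.80 (SE 0.337, adjusted p = 0.0175 in edgeR's test), and -2.47 without the first TgAD library.

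From the Smc4 cluster, miR-15b-5p was the 5p arm with no decrease. This arm was counted 410 and 676 times in WT against 735 and 1179 times in TgAD libraries, or 175 and 232 against 268 and 293 CPM. Both TgAD libraries lay above both WT libraries, with a log2 fold change of 0.46 (SE 0.220, adjusted p = 0.184 in edgeR's test), which was not past the cutoffs. The log2 fold change was 0.20 with total counts as library size and 0.87 (adjusted p = 0.0357) with a correction for GC content described below, where it passed. Leaving out the first TgAD library gave 0.43. Its opposite arm, miR-15b-3p, was counted 118 and 117 times in WT against 70 and 201 times in TgAD libraries, or 50.2 and 40.2 against 25.5 and 50.0 CPM. The genotypes overlapped, the log2 fold change was -0.25 (SE 0.366, adjusted p = 0.667 in edgeR's test), and it turned to 0.051 without the first TgAD library and to 0.41 with the GC correction. miR-16-2-3p, from the second hairpin of this cluster, was counted 91 and 95 times in WT against 37 and 78 times in TgAD libraries. Its level of 38.7 and 32.6 CPM in WT fell to 13.5 and 19.4 CPM in TgAD libraries, a log2 fold change of -1.10 (SE 0.300, adjusted p = 0.0414 in edgeR's test). This call was lost without the first TgAD library (-0.97, adjusted p = 0.103) and without the first WT library (-0.96, adjusted p = 0.157), and with the GC correction the log2 fold change was -0.19 (adjusted p = 0.710).

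miR-15a-5p and miR-15b-5p, which share their seed and differ at 4 of 22 bases, moved apart. There were 3.84 and 2.43 reads of miR-15a-5p per read of miR-15b-5p in WT neurons, against 0.590 and 0.306 in TgAD neurons. In each WT library miR-15a-5p had more reads than miR-15b-5p, and in each TgAD library it had fewer.

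The chromosome 11 cluster had both of its 5p arms lower. miR-195a-5p was counted 1138 and 1682 times in WT against 632 and 838 times in TgAD libraries, or 484 and 578 against 230 and 208 CPM. The TgAD libraries lay close together and under both WT libraries, with a log2 fold change of -1.28 (SE 0.201, adjusted p = 0.0104 in edgeR's test). miR-497a-5p was counted 366 and 496 times in WT against 236 and 291 times in TgAD libraries, or 156 and 170 against 86.0 and 72.4 CPM. Its libraries were likewise apart, with a log2 fold change of -1.04 (SE 0.219, adjusted p = 0.0240 in edgeR's test). Without the first TgAD library these values were -1.45 and -1.27. Within the cluster the ratio of the 5p arms was 3.11 and 3.39 reads of miR-195a-5p per read of miR-497a-5p in WT and 2.68 and 2.88 in TgAD libraries.

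miR-195a-3p, the passenger of the same hairpin as miR-195a-5p, was the only one of the 10 arms that was higher in TgAD neurons past the cutoffs. This arm was counted 61 and 85 times in WT against 117 and 347 times in TgAD libraries, or 26.0 and 29.2 against 42.6 and 86.3 CPM. The TgAD libraries differed from each other, but both lay above both WT libraries. The log2 fold change was 1.23 (SE 0.379, adjusted p = 0.0571 in edgeR's test). Leaving out the second TgAD library gave 0.65 and lost the call, and leaving out the first gave 1.54.

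miR-322-5p, the mouse counterpart of human miR-424, was counted 273 and 364 times in WT against 249 and 332 times in TgAD libraries, or 116 and 125 against 90.7 and 82.6 CPM. The TgAD libraries lay under the WT libraries, with a log2 fold change of -0.48 (SE 0.212, adjusted p = 0.157 in edgeR's test) that did not pass. Scaled by total counts it was -0.73 (adjusted p = 0.0887) and passed, and with the GC correction it was -0.073 (adjusted p = 0.861). Leaving out the first TgAD library gave -0.64.

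**Figure D2:**
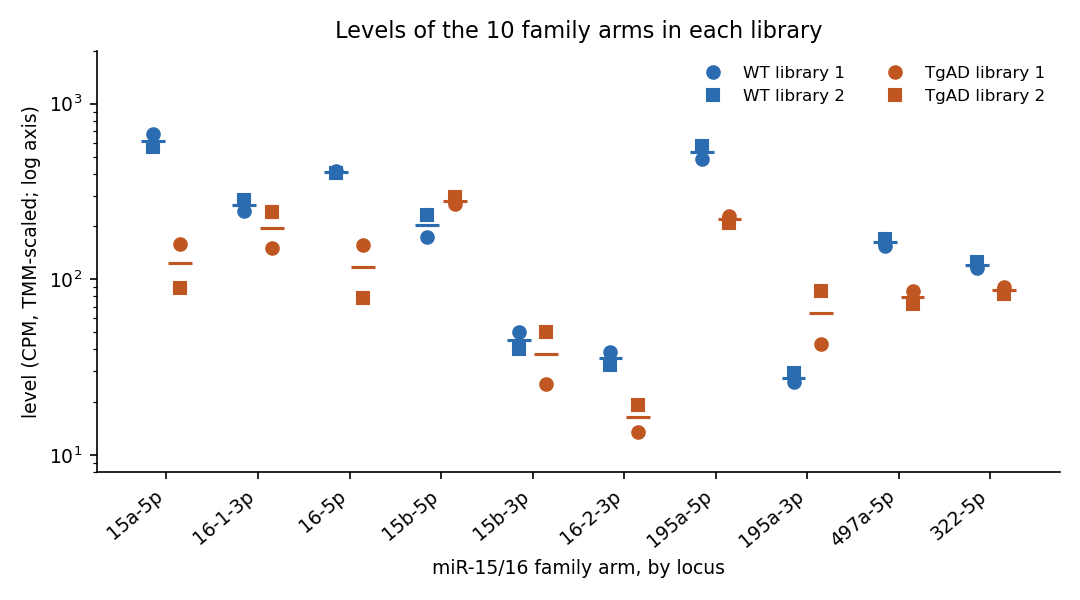
Level of each of the 10 family arms in CPM on a log axis, for WT and TgAD library 1 (circles) and library 2 (squares). Short lines mark the mean of the 2 libraries. miR-15a-5p drops from 670 and 564 to 158 and 89.8 CPM, miR-15b-5p sits higher in both TgAD libraries, and miR-195a-3p rises while miR-195a-5p falls.

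The order of levels in CPM differed between the genotypes. This is an order of reads, which carry no molecular identifiers, and it was not read as an order of the amounts of different miRNA. miR-16-5p is left out of the order, since its reads fit 2 hairpins. In WT neurons miR-15a-5p and miR-195a-5p led, with overlapping libraries, and miR-16-1-3p and miR-15b-5p followed, each apart from the next. In TgAD neurons miR-15b-5p led, apart from miR-195a-5p below it. From there each arm overlapped its neighbor in the order miR-195a-5p, miR-16-1-3p, miR-15a-5p, miR-322-5p, miR-497a-5p, miR-195a-3p and miR-15b-3p.

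**Figure D3:**
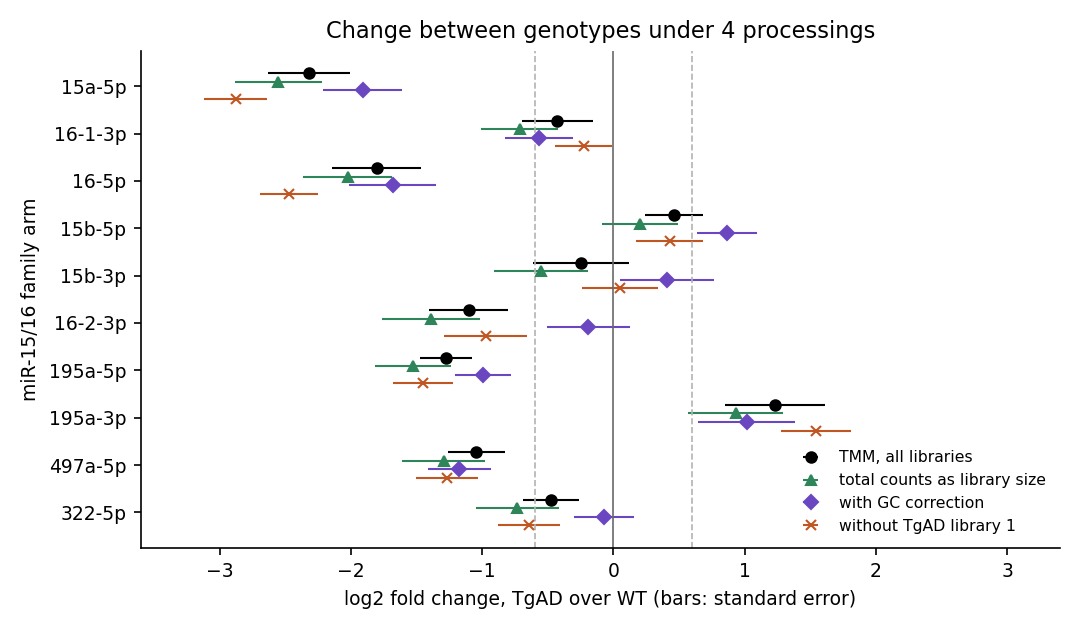
Log2 fold change of each arm in TgAD over WT neurons (points) with its standard error (bars), for TMM with all libraries, total counts as library size, a GC correction, and without the first TgAD library. Dashed lines mark 0.6 in either direction. miR-15a-5p, miR-16-5p, miR-195a-5p and miR-497a-5p stay under -0.6 in all 4, miR-195a-3p stays above 0.6, and miR-15b-3p and miR-16-2-3p move most with the GC correction.

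The guide and the passenger of a hairpin are cut from 1 precursor, and their ratio within a library does not depend on library scaling. The log2 ratio of 5p to 3p reads was compared between genotypes with limma over the 216 hairpins with enough reads on both arms, with Benjamini-Hochberg adjustment. Of these hairpins 26.9% passed the same cutoffs, 16.2% with the 5p arm lower against the 3p arm in TgAD neurons and 10.6% with it higher. Among the 5 testable hairpins of the family, miR-15a and miR-195a passed, both with a lower share of the 5p arm, and miR-15b, miR-16 and miR-322 did not. The genotypes did not overlap for these 5, as for 61.1% of all hairpins tested.

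In miR-15a the guide fell by more than the passenger. miR-15a-3p was counted 19 and 22 times in WT against 18 and 17 times in TgAD libraries, 8.09 and 7.56 against 6.56 and 4.23 CPM, and its own log2 fold change of -0.56 (adjusted p = 0.361 in edgeR's test) was not past the cutoffs. The 5p arm made up 98.8% (Wilson interval 98.1 to 99.2) and 98.7% (98.0 to 99.1) of the reads of the hairpin in WT and 96.0% (93.8 to 97.5) and 95.5% (92.9 to 97.2) in TgAD libraries. It kept most of the reads of the hairpin throughout. The log2 ratio differed by -1.80 between genotypes (SE 0.394, adjusted p = 0.0391 in limma's test). The call was lost without the first WT library (-1.73) and without the second (-1.87). Without the first TgAD library the log2 difference was -1.89.

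In miR-195a the arms moved in opposite directions. The 5p arm held 94.9% (93.5 to 96.0) and 95.2% (94.1 to 96.1) of the reads in WT and 84.4% (81.6 to 86.8) and 70.7% (68.1 to 73.2) in TgAD libraries. There were 18.7 and 19.8 reads of the guide per passenger read in WT and 5.40 and 2.41 in TgAD libraries. The WT libraries agree within their intervals and the TgAD libraries do not. The log2 difference of -2.40 (SE 0.429, adjusted p = 0.0232 in limma's test) was the largest of the family. Leaving out the first TgAD library gave -2.98. The call was lost without the first WT library (-2.45). It was also lost when the variance was not allowed to follow the number of reads (adjusted p = 0.111 in limma's test).

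For miR-16 the shared 5p arm was set against the sum of miR-16-1-3p and miR-16-2-3p. It held 59.2% (56.8 to 61.6) and 56.0% (53.9 to 58.2) of these reads in WT and 48.7% (45.4 to 52.0) and 23.1% (21.0 to 25.4) in TgAD libraries. The share was lowest in the second TgAD library. Since the 5p reads fit 2 hairpins and those of each 3p arm fit 1, the shares were compared between libraries only, and not read as which arm is the more abundant. The log2 difference was -1.35 (SE 0.527, adjusted p = 0.131 in limma's test), which became -0.52 when the second TgAD library was left out and -2.18 when the first was. A fit with 1 TgAD library takes no account of the spread between the 2 TgAD libraries, so only its log2 difference is given. With hairpins kept only where the lesser arm had at least 5 reads in every library, the adjusted p in limma's test was 0.0945, past the cutoffs.

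The miR-15b hairpin went the other way. Its 5p arm held 77.7% (73.9 to 81.0) and 85.2% (82.6 to 87.5) of the reads in WT and 91.3% (89.2 to 93.1) and 85.4% (83.5 to 87.2) in TgAD libraries, where the second WT and second TgAD libraries agree within their intervals. The log2 difference of 0.81 (SE 0.422, adjusted p = 0.232 in limma's test) was not past the cutoffs, and it moved with single libraries. It was 1.22 without the second TgAD library, 0.39 without the first, and 0.44 without the first WT library. In miR-322 the 3p arm had more reads than the 5p arm. miR-322-3p was counted 683 and 1116 times in WT against 870 and 1754 times in TgAD libraries, and the 5p arm held 28.6% and 24.6% of the reads in WT and 22.3% and 15.9% in TgAD libraries. Its log2 difference was -0.63 (SE 0.331, adjusted p = 0.232 in limma's test), and -0.93 with the first TgAD library left out. miR-497a-3p was listed at 0 reads in all 4 libraries, and it overlaps miR-497b on the other strand, and the part of counting in this value was not tested.

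**Figure D4:**
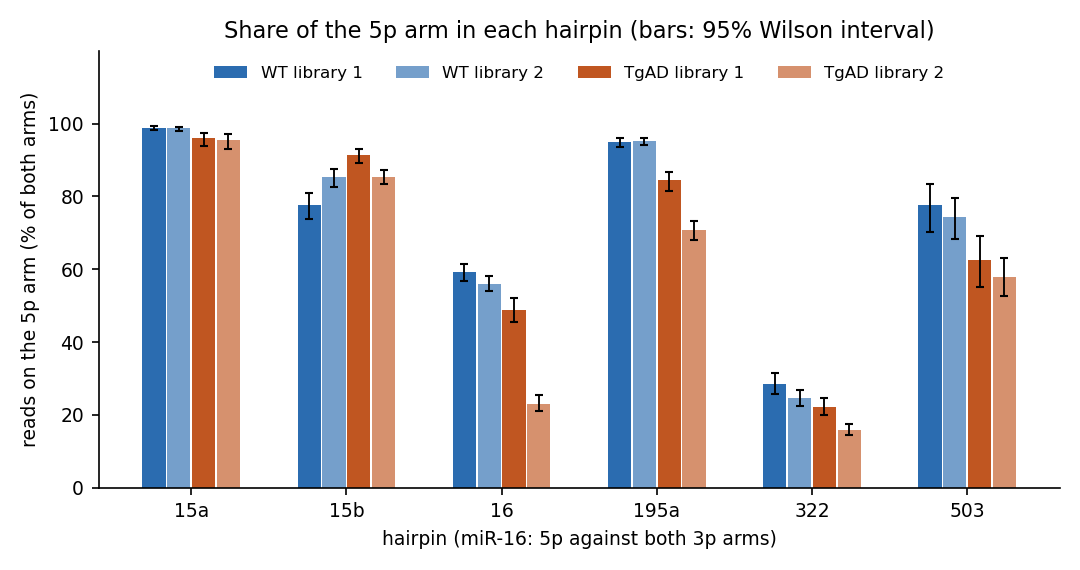
Share of reads on the 5p arm, in percent of both arms, for 6 hairpins in each library (bars), with 95% Wilson intervals of counting error. The share falls from 94.9% and 95.2% to 84.4% and 70.7% in miR-195a, and in miR-15b it is 77.7% and 85.2% in WT against 91.3% and 85.4% in TgAD libraries.

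The neighbors of the family in its clusters were described whatever their values. Of the 16 companion arms and the 3 further miRNA with the seed, 10 were tested, 2 were lower and none was higher. Beside this count and the next, 17.3% of all tested miRNA were lower and 15.7% higher. The cluster on chromosome X, from miR-322 to miR-450b, had 13 listed arms, of which 9 were tested, 1 was lower and none was higher. The lower one was miR-542-3p, counted 1125 and 1820 times in WT against 616 and 865 times in TgAD libraries, or 479 and 625 against 225 and 215 CPM. Its log2 fold change was -1.33 (SE 0.214, adjusted p = 0.0104 in edgeR's test), but -0.42 (adjusted p = 0.213) with the GC correction, and -1.46 with the first TgAD library left out. miR-503-5p, which shares bases 2 to 7 of the seed but not base 8, was counted 114 and 174 times in WT against 113 and 189 times in TgAD libraries, with a log2 fold change of -0.30 (SE 0.2496, adjusted p = 0.427 in edgeR's test). Its sequence is shown for comparison with the 5p arms above.
mmu-miR-503-5p: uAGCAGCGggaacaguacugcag
Its opposite arm, miR-503-3p, was counted 33 and 60 times in WT against 68 and 137 times in TgAD libraries, with a log2 fold change of 0.76 (SE 0.325, adjusted p = 0.144 in edgeR's test). The 5p arm of miR-503 held 77.6% and 74.4% of the reads in WT and 62.4% and 58.0% in TgAD libraries, a log2 difference of -1.06 (SE 0.321, adjusted p = 0.0684 in limma's test). This call was lost when any library other than the first TgAD library was left out, with log2 differences from -1.18 to -0.92. It was also lost when the variance was not allowed to follow the number of reads (adjusted p = 0.136 in limma's test).

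The other lower companion was miR-497b, which is annotated on the strand opposite to Mir497. This arm was counted 36 and 47 times in WT against 15 and 20 times in TgAD libraries. Its log2 fold change was -1.59 (SE 0.327, adjusted p = 0.0238 in edgeR's test), and -1.75 with the first TgAD library left out. Whether the counting used strand is not given in the sources used here, so reads of overlapping antisense arms cannot be told apart. In the chromosome X cluster miR-351-5p, which has another seed, had a log2 fold change of 0.32 (SE 0.261, adjusted p = 0.407 in edgeR's test).

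The change between genotypes moved with the GC content of the mature miRNA over the whole table. The median log2 fold change was -0.76 in the 75 tested miRNA with under 40% GC, -0.40 in the 69 from 40% to 45%, 0.023 in the 88 from 45% to 50%, 0.36 in the 96 from 50% to 55% and 0.25 in the 113 above. Of the family, miR-16-2-3p (31.8%), miR-15b-3p (36.4%), the 5p arms of miR-15a, miR-15b and miR-322 (40.9% each) and miR-195a-5p (42.9%) lie in the lower classes. miR-16-5p has 45.5%, miR-16-1-3p and miR-497a-5p 50.0% and miR-195a-3p 54.5%. The 5p arms of miR-15a, miR-15b and miR-322 have the same GC content, and their log2 fold changes were -2.32, 0.46 and -0.48. Each library was then corrected for its own trend with GC content. After this correction miR-15a-5p (-1.91, adjusted p = 0.00936), miR-16-5p (-1.68, adjusted p = 0.0159), miR-497a-5p (-1.17, adjusted p = 0.0169), miR-195a-5p (-0.99, adjusted p = 0.0219) and miR-195a-3p (1.02, adjusted p = 0.0906) were past the cutoffs in edgeR's test. miR-15b-5p joined them and miR-16-2-3p left. The 5p to 3p differences of miR-15a and miR-195a became -1.35 (adjusted p = 0.0728) and -2.06 (adjusted p = 0.0566) in limma's test. Why the libraries differ in their trend was not tested.

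**Figure D5:**
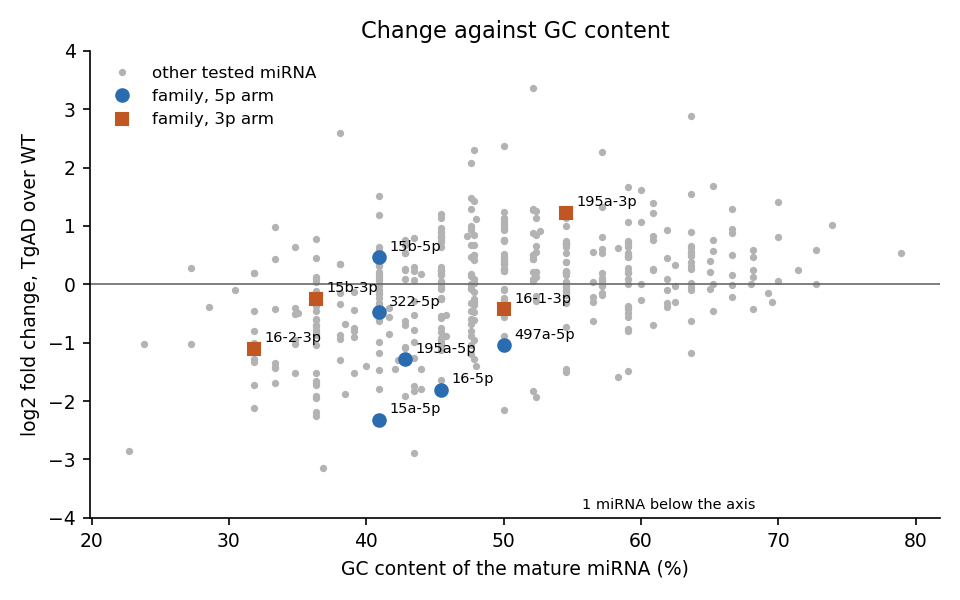
Log2 fold change in TgAD over WT neurons against GC content of the mature miRNA in percent, for every tested miRNA with a reference sequence (grey points), the 5p arms (circles) and the 3p arms (squares) of the family. Low-GC miRNA lie lower as a whole, and miR-15a-5p, miR-15b-5p and miR-322-5p, all at 40.9% GC, spread from -2.32 to 0.46. The 1 miRNA below the axis is left out of view.

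The miRNA outside the family whose levels over the 4 libraries ran closest to miR-15a-5p, by Euclidean distance of log2 CPM centred on each miRNA's mean, were miR-544-3p (distance 0.148), miR-184-3p (0.316) and miR-107-5p (0.460). For miR-16-5p they were miR-184-3p (0.300), miR-500-3p (0.317) and miR-544-3p (0.400). Of these, miR-107-5p was counted only 22 and 14 times in WT against 4 and 2 times in TgAD libraries, the last under the floor of 3 reads. With 4 libraries these distances are a description of likeness only.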

How the data were processed

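Per the labels and the study's methods, the authors received 50 bp reads already free of adapters, aligned them by Bowtie2 to GRCm38 allowing no mismatch, and deposited HTSeq counts per mature miRBase miRNA without normalization, 1 table per library. They also deposited a table of normalized signal, in which each library's counts are scaled by its own size factor. All of its values came out as whole multiples of 1 read within 0.01 reads, and it was compared with the count tables, used as an alternative, and read for the column that matches none of them.

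Counts were scaled by TMM and filtered with filterByExpr, and TgAD was compared with WT in edgeR 4.0.16 (R 4.3.3) by the quasi-likelihood test, with genotype as the only factor and Benjamini-Hochberg adjustment over the 496 miRNA tested. The standard error is the log2 fold change divided by the square root of F. Arm ratios, log2 of 5p over 3p reads with 0.5 reads added to each, were tested with limma 3.58.1 over hairpins with at least 20 reads in all and 10 on the lesser arm, with the variance following the reads of the lesser arm. Calls use the study's cutoffs of 0.6 and 0.1. The GC correction is a local regression (span 0.75, prior count 2) of each library's log2 CPM deviations on mature GC content, known for 88.9% of the tested miRNA. Depth was 2070204 to 4811010 reads per library, and a count of 3 reads was the floor. Sequences are from RefSeq (GRCm38.p6) and hairpin loci from GENCODE M21. Both tests were checked on simulated counts. These held no trend with GC content, and those of hairpins had the same spread for every hairpin. The rates that follow therefore need not hold for the real libraries. The edgeR test called 70.4% of log2 changes of size 1 and 99% of size 2, with 12 unchanged miRNA called. The limma test called 39.6% and 81.1%, with 2 unchanged hairpins called, so a ratio that did not pass may still differ.

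The text names the family arms, the other arms of their clusters, further miRNA with the seed, the 3 nearest patterns to miR-15a-5p and to miR-16-5p, and miR-99a-5p. Members, lists and tests were chosen with earlier results of these data known. DESeq2 1.42.0, other scalings and filters, the robust option, a replicate block and leaving out each library were alternatives.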

Additional observations from a re-analysis of the deposited data

Results flagged for a closer look

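miR-195a-3p was flagged in the normalized column TR_2, which matches no count table and entered only the alternative that takes the normalized columns by name. The rule sought only family arms higher there than in both columns named WT. Arms lower there were not sought, though there were such arms, miR-15a-5p among them (164 against 378 and 1650). Its value there was 184 normalized reads, above both columns named WT, which hold 102 (the reads of the first TgAD library) and 63.9 (those of the first WT library). The column TR_1, which holds the second TgAD library, had 206.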

How the results depend on the processing

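The count of family arms past the cutoffs was 6 with RLE, without a filter, with at least 10 reads in every library, with DESeq2, with edgeR's robust option and with the GC correction, 8 with total counts, and 5 to 6 with 1 library left out. With the normalized table, 0 of the family arms and 0 of all miRNA passed in edgeR (54 at an unadjusted p under 0.05; DESeq2 was not run on it), against 164 of all miRNA with all count tables and 118 to 143 with 1 library left out. By direction, total counts gave 122 lower and 43 higher in place of 86 and 78. Hairpins past the cutoffs were 58, 10 without the variance trend, and 0 to 54 with 1 library left out, with 0 (50 at an unadjusted p under 0.05 in limma) and 17 without the first and the second WT library. The log2 of the TgAD over the WT share of the family's 5p reads was -1.42, and with 1 library left out it ranged from -1.70 to -1.19. Where a genotype is left with 1 library, that library is assumed to vary like the rest. The cause was not tested in any of these cases.

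Directions that turned were those of miR-15b-3p (0.41 with the GC correction, 0.35 with GC correction and block, and -0.79 to 0.051 with 1 library left out), miR-16-1-3p (0.15 with the normalized table), miR-322-3p (-0.11 with total counts, -0.060 to 0.36 with 1 library left out), miR-497b (0.30) and miR-450b-3p (0.099) with the normalized table, miR-542-5p (-0.23 with total counts, -0.18 with the GC correction with or without block, -0.33 to 0.34 with 1 library left out) and miR-450b-5p (-0.10 with total counts, -0.69 to 0.67 with 1 library left out). No turned value was past the cutoffs.

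Replicate numbers are shared by the genotypes, but each replicate is another embryo and nothing in the labels pairs them. Deviations of same-numbered libraries correlated at 0.216 over 496 miRNA. With the replicate block 188 miRNA, 69 hairpins and 6 family arms passed, and of the arms and hairpins named only miR-503-3p (0.77, adjusted p = 0.0768 in edgeR) and the arm ratios of miR-16, miR-542 and miR-450b (adjusted p from 0.0724 to 0.0806 in limma) newly passed, with no call lost.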

Other observations

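The column TR_2 of the normalized table gives whole reads of a further library, whose name sets it apart from the WT columns and matches no sample title. Its recovered reads sum to 1926952 over the 674 miRNA listed. The 5p arms of the family took 0.0443% of them (Wilson interval 0.0414 to 0.0473). Within the family miR-15a-5p held 10.7% of the 5p reads and miR-15b-5p 32.2%, from 91 and 275 reads. miR-195a-5p held 33.4%.

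The shares of the 5p arm, which need no scaling, can be set beside those of the count tables. In TR_2 the 5p arm held 73.6% (69.0 to 77.8) of the reads of miR-195a, 91.9% (84.9 to 95.8) of miR-15a, 25.7% (21.5 to 30.4) of miR-16 against both 3p arms, 89.6% (85.7 to 92.5) of miR-15b and 11.3% (8.53 to 14.9) of miR-322. For miR-195a, miR-15a, miR-16 and miR-322 these shares lie under those of both WT count tables, and for miR-15b above them. The interval of miR-15b overlaps that of the second WT library (82.6 to 87.5), and the share of miR-15a rests on 8 reads of the 3p arm. How often this holds over all hairpins was not counted. With 1 library of this kind no test was made.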
